A study of Danio rerio with 4 samples.

Results

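Matrix metalloproteinases are zinc-dependent endopeptidases that cut the proteins of the extracellular matrix. They are made as inactive proenzymes and are held in check by tissue inhibitors of metalloproteinases (TIMPs), which bind the active site, and by reck, a membrane-anchored inhibitor. The counts of these genes were examined in 4 nuclear RNA libraries from zebrafish heads. The genes were taken by symbol from a list of 10 names, comprising mmp2, mmp9, mmp13a, mmp14a, mmp14b, mmp15b, timp2a, timp2b, timp3 and reck. Upper or lower case and a final paralog letter were ignored. This matched 11 of the 31952 genes of the table, of which 8 encode metalloproteinases and 3 encode inhibitors, and 10 of the 11 had enough counts to be tested. The name table gives the symbols MMP14, MMP15 and TIMP2 to 2 genes each without a paralog letter. These pairs are therefore told apart by Ensembl identifier, and which of them is the a or the b paralog was not settled here. The letter rule also brought in mmp13b and a second MMP15 gene, since only mmp15b was listed. No gene matched timp3.

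All larvae carried 2 transgenic systems, the allele ox128, which joins mpo:BirA-Citrine to bactin:Avi-Cerulean-Rangap, and the allele ox130, which joins kita:LexPR-Cerulean to PcrysB:ECFP-LexOP:mCherry-NRas. In the first, the mpo promoter drives the biotin ligase BirA in neutrophils, and BirA biotinylates a tagged nuclear envelope protein that every cell makes, so that neutrophil nuclei can be pulled down on streptavidin beads. In the second, the LexPR activator, placed by the labels under the melanocyte promoter kita, switches on the oncogene mCherry-NRas when mifepristone is present. The study's line list gives the number ox130 to a line driven by mitfa, another melanocyte promoter, and the driver of these larvae is taken from the labels. The control group had 2 libraries from larvae without mifepristone and the NRas+ group had 2 libraries from larvae given 1 µM mifepristone from 24 hpf. Both groups were collected at 5 dpf, and each library pooled dissected heads. Drug and oncogene cannot be told apart in these libraries, because only the NRas+ larvae had mifepristone. The study also gave the drug to larvae with the first system alone, and by qPCR saw little or no change in selected transcripts. No gene of the set examined here was among those transcripts.

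Total counts ranged from 30619195 to 42365244 per library. The 16 neutrophil marker genes together made up between 0.00662% and 0.0115% of the counts, with the neutrophil lysozyme gene lyz between 3.0 and 12.6 CPM (counts per 1000000 counts of the tested genes, with library sizes scaled by TMM). The 20 skeletal muscle marker genes made up 19.2% and 14.5% in the controls and 29.2% and 29.7% in NRas+. In both NRas+ libraries 16 of them lay above both controls and 1 below, beside 20.5% and 21.8% of all genes tested. Their median log2 fold change was 1.08. DESeq2 called 6 of them higher, against 1.62% of the genes to which it gave an adjusted p, and edgeR called none. The neutrophil peroxidase mpx and the macrophage gene mpeg1.1 were not found under those names. The libraries thus held muscle RNA as well, and the source cell of a metalloproteinase transcript was not determined. In such bulk libraries fewer cells of a type and less RNA per cell cannot be told apart. Control 2 stood apart in several ways. Its TMM factor was 1.41, against 0.861 to 0.941 in the other libraries. It had the lowest skeletal muscle share, at 14.5%, and the lowest sum of epidermis markers, at 856 CPM against 1619 to 4769 CPM. Its sums of cartilage and bone markers were the highest. The cartilage marker list summed to 5362 CPM in control 2, against 2123 in control 1 and 1257 and 1607 in the NRas+ libraries. The bone marker list summed to 317 CPM in control 2 and to between 34.2 and 82.4 CPM in the other 3 libraries. None of the genes of either list was at 0 in all 4 libraries.

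No metalloproteinase or inhibitor gene passed an adjusted p of 0.05 in edgeR's quasi-likelihood test, in either direction. Over all 20099 genes tested, 0.129% passed as higher in NRas+ and 0.0398% as lower. At an unadjusted p under 0.05, 1 of the 10 tested genes was higher (mmp13a) and 1 was lower (the MMP14 gene ENSDARG00000008388). Among all genes tested 5.16% were higher and 6.11% lower at that level. DESeq2, the tool named in the study's methods, likewise called none of the 10, against 1.62% higher and 1.32% lower among the genes to which it gave an adjusted p, although it gave none to mmp9 and mmp13a. Both NRas+ libraries lay above both controls for 2 genes, mmp9 and mmp13a. They lay below both controls for 3 genes, which were reck, one MMP14 gene and one MMP15 gene. Among all genes tested the corresponding shares were 20.5% and 21.8%. The median log2 fold change of the 10 genes was -0.35, beside -0.04 over all genes tested. With control 2 left out the median was 0.54. Levels are not compared between genes, since gene lengths were not used.

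**Figure D1:**
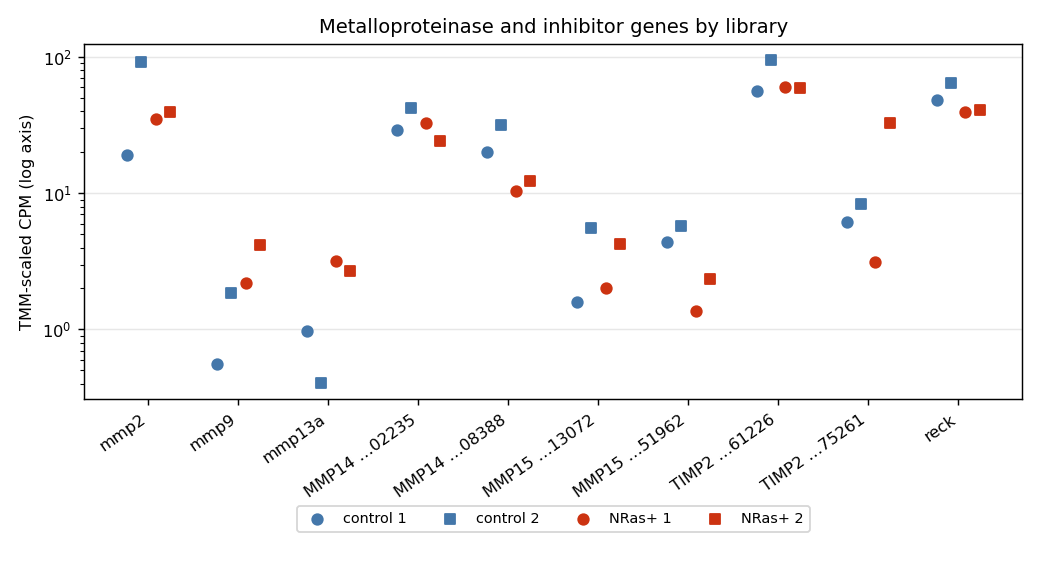
TMM-scaled CPM on a log axis of the 10 tested genes in each of the 4 libraries, controls in blue and NRas+ in red, replicate 1 as circles and replicate 2 as squares. Genes sharing a symbol carry the last digits of their Ensembl identifier. For mmp9 and mmp13a both red points lie above both blue points, and for mmp2 the widest gap is between the blue points, at 19.3 and 92.9 CPM.

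The collagenase gene mmp13a (ENSDARG00000012395) encodes an enzyme that cleaves fibrillar collagen. It had 0.968 and 0.403 CPM in control 1 and control 2, and 3.21 and 2.71 CPM in NRas+ 1 and NRas+ 2. These values rest on 26, 22, 117 and 103 counts. Both NRas+ libraries were higher than both controls, and the groups did not overlap. The group means were 0.685 ± 0.399 and 2.96 ± 0.354 CPM (SD, n = 2 each). The log2 fold change was 2.29 (standard error 1.04), or 4.88-fold (edgeR, unadjusted p = 0.041, adjusted p = 0.419). Fits without any 1 library put it between 1.63 and 2.88. It was the only one of the 10 genes with fewer counts in control 2 than in control 1.

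The gelatinase gene mmp9 (ENSDARG00000042816) encodes an enzyme that mammalian neutrophils store in granules and that digests denatured collagen and basement membrane collagen. It had 0.558 and 1.85 CPM in the controls and 2.19 and 4.21 CPM in NRas+ 1 and NRas+ 2. The groups did not overlap, but the gap between control 2 and NRas+ 1 was smaller than the gap between the controls. On the log2 scale the fitted change was 1.24 (standard error 0.91, adjusted p = 0.654 from edgeR). It was 0.77 without NRas+ 2 and 2.54 without control 2. It rested on 15, 101, 80 and 160 counts in the same order of libraries.

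The low counts of both genes can be set beside the markers of neutrophils, macrophages and epidermis, although their source cell was not determined. The neutrophil list summed to 75.4 and 82.2 CPM in the controls and 91.2 and 105 CPM in NRas+, higher in both NRas+ libraries. Without the gene nccrp1 it summed to 65.5 and 62.9 CPM in the controls and 62.0 and 75.6 CPM in NRas+, and the groups overlapped. Of its 15 tested genes, 5 were above and 1 was below both controls, beside 20.5% and 21.8% of all genes tested. The median log2 fold change was 0.18, and none passed the threshold. The macrophage list summed to 250 and 137 CPM in the controls and 353 and 212 CPM in NRas+, with overlapping groups, and 1 of its genes, apoeb, took most of that sum. Epidermal markers summed to 2467 and 856 CPM in the controls and 4769 and 1619 CPM in NRas+, again overlapping. Beside 9637 of all 20099 genes tested, all 8 epidermal genes had a log2 fold change above 0, with a median of 0.79. Of these, 3 lay above and 0 below both controls, beside the same 20.5% and 21.8%, and none passed the threshold. No gene of these 3 lists was at 0 in all libraries. The part of these cells in the values of mmp9 and mmp13a was not tested.

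The other gelatinase gene, mmp2 (ENSDARG00000017676), encodes an enzyme made mostly by mesenchymal cells. It had 19.3 CPM in control 1 and 92.9 CPM in control 2, a 4.82-fold difference within the group. The NRas+ libraries had 35.3 and 39.4 CPM and lay between the controls. Fitted over all 4 libraries, the log2 fold change was -0.60 (standard error 0.50, adjusted p = 0.7 from edgeR). It was -1.30 without control 1 and 0.98 without control 2, so that the direction rested on which control was kept. Control 2 was also the library with the highest sums of cartilage and bone markers. The sum of the mesenchyme marker list differed less between the controls, with 754 CPM in control 1 and 788 CPM in control 2. Of these sums, DCN made up 364 and 381 CPM. The median ratio of control 2 to control 1 over the 9 genes was 1.19, and 6 were higher in control 2. Over all 20099 genes tested that median was 1.01, and 10675 were higher in control 2. All 9 mesenchyme genes, beside 10462 of all genes tested, had a log2 fold change below 0. Without control 2 it was 0.41 for fap and 0.60 for twist1b, whereas the other genes of the list stayed below 0. The part of any of these cells in the mmp2 values was not tested.

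**Figure D2:**
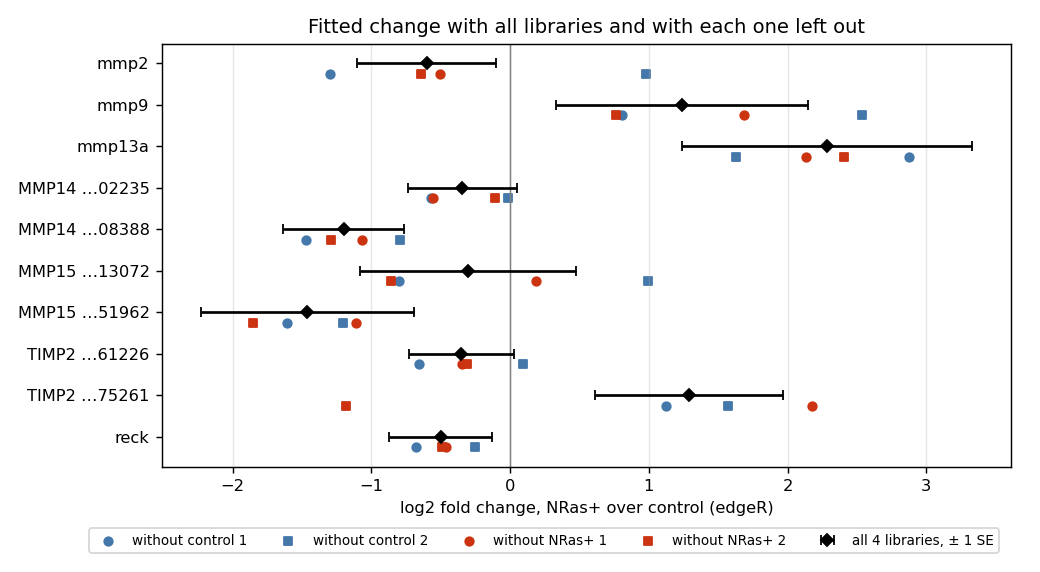
Log2 fold change of NRas+ over control in edgeR for the 10 tested genes, with all 4 libraries (black diamonds, bars ± 1 standard error) and with each library left out (coloured points). All points of mmp13a lie to the right of 0, from 1.63 to 2.88, whereas those of mmp2 lie on both sides, from -1.30 to 0.98.

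The MMP14 and MMP15 genes encode membrane-type metalloproteinases, which act at the cell surface. In mammals MMP14 also activates the proenzyme of MMP2. The MMP14 gene ENSDARG00000008388 had 20.1 and 31.9 CPM in the controls and 10.4 and 12.4 CPM in NRas+. Both NRas+ libraries were lower than both controls. The log2 fold change was -1.20 (standard error 0.44), or 2.30-fold lower, and its p was the lowest of the 10 genes (edgeR, unadjusted p = 0.0124, adjusted p = 0.29). Without control 2 it was -0.80. The other MMP14 gene, ENSDARG00000002235, had 29.3 and 42.6 CPM in the controls and 32.6 and 24.3 CPM in NRas+. The groups overlapped, and the log2 fold change was -0.34 (standard error 0.39, adjusted p = 0.803 from edgeR).

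The ratio between paralogs does not depend on how the libraries are scaled. Per count of the MMP14 gene ENSDARG00000002235, ENSDARG00000008388 had 0.686 counts in control 1, 0.749 in control 2, 0.319 in NRas+ 1 and 0.510 in NRas+ 2. Neither NRas+ library reached the ratio of either control, and the mean log2 difference was -0.83. An exact two-sided permutation test gave p = 0.333, which is the smallest p that 2 libraries against 2 can give. This was 1 of 9 ratios computed.

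The MMP15 gene ENSDARG00000051962 had 4.35 and 5.73 CPM in the controls and 1.37 and 2.34 CPM in NRas+, without overlap. Its fitted log2 change was -1.46 (standard error 0.77, adjusted p = 0.497 from edgeR), and it stayed between -1.86 and -1.11 with each library left out. The second MMP15 gene, ENSDARG00000013072, had 1.60 and 5.56 CPM in the controls and 2.03 and 4.26 CPM in NRas+. In each group replicate 2 was the higher library. Its fitted log2 change, -0.30 (standard error 0.78, adjusted p = 0.928 from edgeR), became 1.00 without control 2 and 0.19 without NRas+ 1. The difference between the paralogs of either pair was not tested in the fit. The collagenase paralog mmp13b (ENSDARG00000100794) had 8 counts in control 2, 4 in NRas+ 2 and 0 in the other libraries, where a count of 0 allows up to 0.112 CPM in control 1 and 0.0823 CPM in NRas+ 1, taking 3 counts per library as the limit. It was not tested. That limit covers counting error only.

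Among the inhibitors, reck (ENSDARG00000090039) encodes a glycoprotein that restrains several metalloproteinases at the cell surface. It had 48.3 and 64.8 CPM in the controls and 39.3 and 40.8 CPM in NRas+, without overlap. The group means were 56.6 ± 11.6 and 40.1 ± 1.08 CPM (SD, n = 2 each). Its fitted log2 change was -0.50 (standard error 0.37, adjusted p = 0.66 from edgeR) and -0.25 without control 2.

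TIMP2 inhibits metalloproteinases and, in mammals, bridges MMP14 and the MMP2 proenzyme at the cell surface. The TIMP2 gene ENSDARG00000061226 had 56.9 and 95.3 CPM in the controls and 60.2 and 59.6 CPM in NRas+. Both NRas+ libraries lay between the controls. Its fitted log2 change was -0.35 (standard error 0.38, adjusted p = 0.787 from edgeR) and 0.094 without control 2. The second TIMP2 gene, ENSDARG00000075261, had 6.14 and 8.38 CPM in the controls, 3.15 CPM in NRas+ 1 and 32.9 CPM in NRas+ 2. NRas+ 2 thus stood 10.4-fold above NRas+ 1, the widest gap between libraries of a group among the 10 genes, while the controls differed by 1.37-fold. Its fitted log2 change, 1.29 (standard error 0.68, adjusted p = 0.496 from edgeR), rested on NRas+ 2 and was -1.18 without it.

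**Figure D3:**
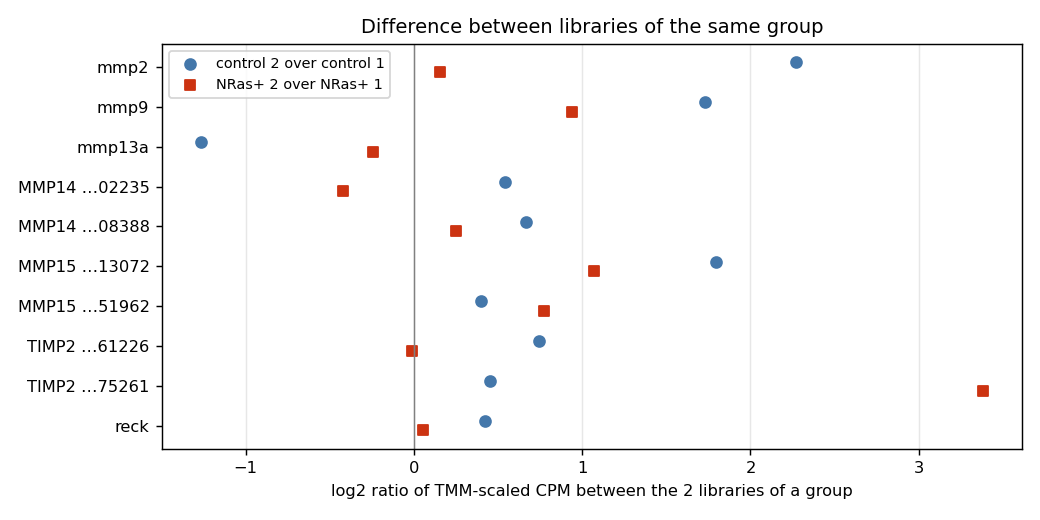
Log2 ratio of TMM-scaled CPM of replicate 2 over replicate 1 for each tested gene, in controls (blue circles) and in NRas+ (red squares). All control points except that of mmp13a lie to the right of 0, and the red square of the TIMP2 gene ENSDARG00000075261 lies farthest right.

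For mmp2, mmp9, one MMP14, one MMP15 and one TIMP2 gene the controls differed from each other by more, on the log2 scale, than the fitted change between groups. Of the 10 genes, 9 had more CPM in control 2 than in control 1, beside 10675 of all 20099 genes tested. Over the 7 tested metalloproteinases, the median absolute log2 difference was 1.26 between the controls and 0.42 between the NRas+ libraries. Over the 3 inhibitors these medians were 0.45 and 0.05. Over all genes tested they were 0.76 and 0.58.

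The balance of proteases to inhibitors was compared within each library, as summed counts of the 8 matched metalloproteinases over those of reck and both TIMP2 genes. The TIMP4 gene ENSDARG00000100795 was not in the inhibitor sum. It had 820 counts in control 1, 5225 in control 2, 1410 in NRas+ 1 and 1607 in NRas+ 2. In control 2 this exceeded the count of either TIMP2 gene. A ratio with TIMP4 included was not computed, so the values hold for the listed inhibitors only. Per inhibitor count, the controls had 0.683 and 1.08 metalloproteinase counts and the NRas+ libraries had 0.850 and 0.673. The groups overlapped, and the log2 difference was -0.18 (exact two-sided permutation p = 0.667). The genes with most counts on each side were mmp2 and the TIMP2 gene ENSDARG00000061226. With both left out, the ratio was 1.04 for control 1, 1.21 for control 2, 1.22 for NRas+ 1 and 0.682 for NRas+ 2. The groups again overlapped, with a log2 difference of -0.30. For mmp2 there were 0.339 and 0.975 counts per count of the TIMP2 gene ENSDARG00000061226 in the controls. The NRas+ libraries had 0.588 and 0.661 and lay between these. Per count of both MMP14 genes together, mmp2 had a ratio of 0.390 and 1.25 in the controls and of 0.821 and 1.07 in NRas+, again between the controls. For mmp13a there were 0.0502 and 0.00434 counts per mmp2 count in the controls and 0.0908 and 0.0687 in NRas+. Both NRas+ libraries were higher (log2 difference 2.42, exact two-sided permutation p = 0.333). The log2 SD between the controls was 2.50, where mmp2 had 518 and 5073 counts and mmp13a had 26 and 22. Per mmp9 count the mmp13a ratio was 1.73 and 0.218 in the controls and 1.46 and 0.644 in NRas+, with overlap.

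Other genes of the pathway were taken from 8 lists written by function. Some listed names matched no gene, among them timp1, adamts2, plaur, postna and postnb. No gene of these lists passed the threshold in edgeR. Of 9 other metalloproteinases tested, at an unadjusted p under 0.05, 1 was higher and 2 were lower, beside 5.16% and 6.11% of all genes tested. The median log2 fold change was -0.44. It was -1.82 without NRas+ 2 and 0.43 without control 2. The membrane-anchored mmp17b had 22.9 and 28.6 CPM in the controls and 7.13 and 8.99 CPM in NRas+. Its log2 fold change was -1.68 (standard error 0.44, adjusted p = 0.12 from edgeR), and it passed in DESeq2 (adjusted p = 0.0242). The gene mmp30 had 0 and 3.06 CPM in the controls and 10.8 and 4.68 CPM in NRas+ (adjusted p = 0.34 from edgeR). The inhibitor gene TIMP4 with more counts (ENSDARG00000100795) had 30.5 and 95.6 CPM in the controls and 38.7 and 42.2 CPM in NRas+. These NRas+ values lay between the controls, as for mmp2 (adjusted p = 0.625 from edgeR). The other TIMP4 gene, ENSDARG00000102617, stayed between 0 and 0.805 CPM.

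The next list held genes of the matrix proteins on which these enzymes act. Of the 33 tested, none passed in edgeR, and 25 lay below both controls and 0 above, beside 21.8% and 20.5% of all genes tested. At an unadjusted p under 0.05, 15 were lower and 0 higher, beside 6.11% and 5.16% of all genes tested. The median log2 fold change was -0.85. DESeq2 called 5 of them lower, against 1.32% of the genes to which it gave an adjusted p. The lowest p of the list was that of COL4A2, a chain of basement membrane collagen, which is a substrate of the gelatinases. COL4A2 had 108 and 114 CPM in the controls and 37.5 and 29.6 CPM in NRas+, which gave -1.72 on the log2 scale (standard error 0.38, adjusted p = 0.0635 from edgeR and 0.00194 from DESeq2). Its partner chain COL4A1 had 374 and 390 CPM in the controls and 144 and 137 CPM in NRas+ (log2 fold change -1.44, adjusted p = 0.14 from edgeR and 0.006 from DESeq2). Of the same collagen, col4a5 had 109 and 133 CPM in the controls and 41.4 and 76.2 CPM in NRas+, without overlap. The groups overlapped for col4a6, with 40.8 and 106 CPM in the controls and 26.1 and 49.8 CPM in NRas+. Its log2 fold change was -0.96 (adjusted p = 0.436 from edgeR) and -0.09 without control 2. With 1 library left out, the adjusted p from edgeR was between 0.0297 and 0.862 for COL4A2 and between 0.0406 and 1 for COL4A1. Both lowest values came without control 2, where the genes called lower over the whole table numbered 263 instead of 8. The cartilage proteoglycan gene acanb had 12.1 and 9.76 CPM in the controls and 1.29 and 2.71 CPM in NRas+ (log2 fold change -2.43, adjusted p = 0.123 from edgeR and 0.0151 from DESeq2). The mesenchyme markers moved with the list, since 7 of 9 lay below both controls, beside 21.8% of all genes tested. They summed to 754 and 788 CPM in the controls and 511 and 388 CPM in NRas+. The genes DCN and LUM stand in both lists, and the 7 mesenchyme markers outside the matrix list summed to 349.8 and 352 CPM in the controls and 170 and 182 CPM in NRas+, with 5 below both controls. None of the mesenchyme markers was at 0 in all libraries. Below both controls also lay 6 of 11 cartilage, 4 of 7 endothelium, 3 of 4 smooth muscle and 4 of 7 melanocyte markers. In these lists 0 lay above, beside 21.8% and 20.5% of all genes tested, and the medians were -1.13, -0.61, -0.97 and -0.58. In edgeR 1 cartilage and 1 smooth muscle marker passed as lower, against 0.0398% of all genes tested. The bone and neuron lists differed from these. Of 7 tested bone markers 1 lay below both controls and 0 above, with a median of -0.37. Of 7 neuron markers 1 lay below and 1 above, with a median of -0.05. Neutrophil, macrophage, epidermis and skeletal muscle medians were above 0. The part of any of these cells in the matrix values was not tested. The matrix list also shares 3 genes with the cartilage markers, namely acana and both genes named COL2A1. Skeletal muscle markers took a larger share of the counts in both NRas+ libraries. With them left out of the TMM factors only, the median of the matrix list was -0.85 and that of the ADAMTS genes was -1.26. Library sizes still held the muscle counts, so this setting cannot show what the muscle share did to these values. That was not tested.

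The related ADAMTS proteases, several of which cleave proteoglycans, had 11 of 16 tested genes below both controls and 0 above. Among all genes tested these shares were 21.8% and 20.5%. At an unadjusted p under 0.05, 7 were lower and 0 higher, beside 6.11% and 5.16% of all genes tested. The median log2 fold change was -1.26. Some of the genes below both controls rest on few counts or a small gap. In NRas+ 1, ADAMTS8 (ENSDARG00000007709) had 1 count and ADAMTS15 (ENSDARG00000033544) had 0. ADAMTS1 had 34.6 CPM in NRas+ 2 and 34.7 CPM in control 2. With at least 10 counts in every library 11 genes of the list were tested, with a median of -1.18. ADAMTS5, an aggrecan-cleaving enzyme, had 16.3 and 8.93 CPM in the controls and 3.21 and 2.00 CPM in NRas+ (log2 fold change -2.25, adjusted p = 0.135 from edgeR and 0.0227 from DESeq2). The gene adamts12 had 10.5 and 14.3 CPM in the controls and 2.19 and 3.02 CPM in NRas+ (log2 fold change -2.26, adjusted p = 0.117 from edgeR and 0.0145 from DESeq2). The list's median was -2.35 without NRas+ 2 and -0.81 without NRas+ 1. Of 15 tested ADAM genes, the membrane-bound relatives, 4 lay below both controls and 2 above, beside the same 21.8% and 20.5% of all genes tested, 1 was lower and 0 higher at an unadjusted p under 0.05, and the median was -0.43. ADAM12 had 12.1 and 8.26 CPM in the controls and 1.84 and 1.84 CPM in NRas+ (log2 fold change -2.44, adjusted p = 0.131 from edgeR and 0.0124 from DESeq2), whereas ADAM11 had 1.08 and 1.17 CPM in the controls and 5.07 and 1.60 CPM in NRas+ (adjusted p = 0.581 from edgeR).

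**Figure D4:**
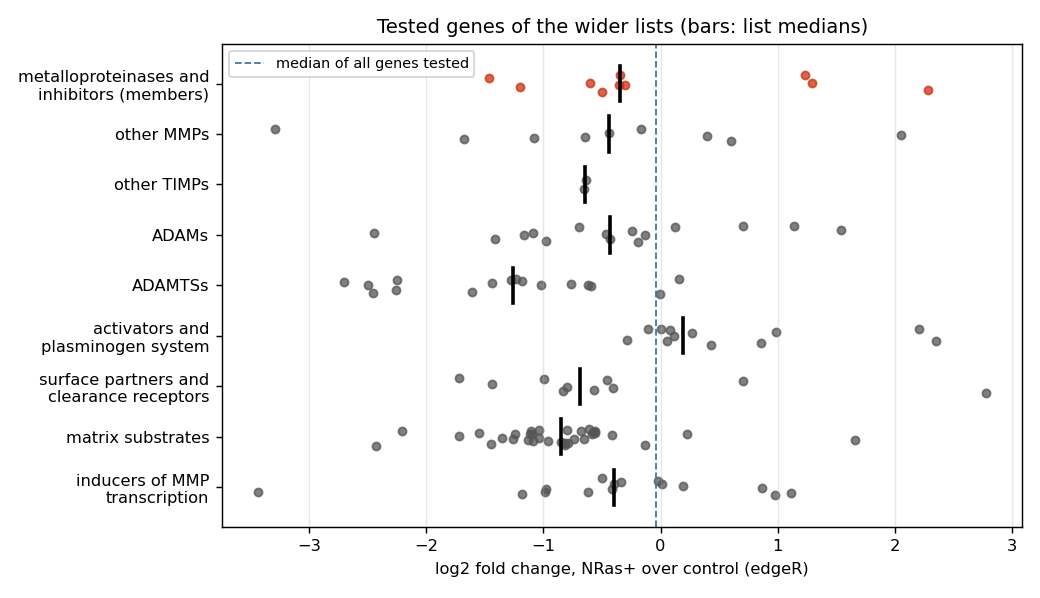
Log2 fold change of NRas+ over control in edgeR for each tested gene of the metalloproteinase and inhibitor set (red) and of the 8 wider lists (grey), with list medians as black bars and the median of all genes tested as a dashed line at -0.04. The medians of the ADAMTS proteases and the matrix substrates lie at -1.26 and -0.85, and that of the activators at 0.19.

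Activators of the proenzymes and the plasminogen system had 3 of 12 tested genes above both controls and 0 below. Among all genes tested these shares were 20.5% and 21.8%. At an unadjusted p under 0.05, 2 were higher and 0 lower, beside 5.16% and 6.11% of all genes tested. The median log2 fold change was 0.19. PLG, the plasminogen gene, had 1.71 and 0.934 CPM in the controls and 7.38 and 5.15 CPM in NRas+ (log2 fold change 2.35, standard error 0.80, adjusted p = 0.255 from edgeR). The matriptase paralog st14a had 0.223 and 1.15 CPM in the controls and 4.11 and 3.44 CPM in NRas+ (log2 fold change 2.21, adjusted p = 0.387 from edgeR, and 4.08 without control 2). Of 10 surface partners and clearance receptors, 6 lay below both controls and 0 above, beside 21.8% and 20.5% of all genes tested. At an unadjusted p under 0.05, 4 were lower and 1 higher, beside 6.11% and 5.16% of all genes tested. The median was -0.69. MRC2, an endocytic collagen receptor, had 5.69 and 17.1 CPM in the controls and 1.86 and 5.28 CPM in NRas+ (log2 fold change -1.72, adjusted p = 0.308 from edgeR, with -0.65 without control 2 and -2.60 without NRas+ 2). One LRP1 gene (ENSDARG00000097827), whose product clears protease complexes from the cell surface, had 55.3 and 69.3 CPM in the controls and 28.5 and 34.2 CPM in NRas+ (adjusted p = 0.311 from edgeR).

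Transcription factors and cytokines known from mammals to induce metalloproteinase genes gave 5 of 15 tested genes below both controls and 2 above, beside 21.8% and 20.5% of all genes tested, with a median log2 fold change of -0.39. The AP-1 gene fosaa had 6.59 and 0.842 CPM in the controls and 0 and 0.578 CPM in NRas+ (adjusted p = 0.353 from edgeR). The factor ETS1 had 28.2 and 31.2 CPM in the controls and 12.1 and 17.9 CPM in NRas+ (log2 fold change -0.98, adjusted p = 0.368 from edgeR). At an unadjusted p under 0.05, 3 genes of this list were lower and 0 were higher, beside 6.11% and 5.16% of all genes tested. The AP-1 names fosab, junba and junbb matched no gene, and tnfa had 0 counts in all 4 libraries.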

How the data were processed

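The authors aligned reads to Zv10/danRer10 with STAR 2.4.2a, and the deposited values are raw featureCounts counts per Ensembl gene. The paper states standard counting parameters, while the labels give the strand as reverse, so reads of overlapping or antisense genes and of close paralogs are uncertain. Each of the 4 columns was mapped to its library by name. The study describes its replicates as biological replicates from separate experiments, each with both conditions, and elsewhere calls them technical replicates. The labels do not say that a replicate number marks 1 experiment. Analysed here were 2 libraries per group, fewer than the replicates the study reports. Amplified reads are not independent molecules.

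For analysis edgeR 4.0.16 was run under R 4.3.3. After filterByExpr and TMM scaling, 20099 genes entered glmQLFTest, and p-values were adjusted over them (Benjamini-Hochberg, threshold 0.05). Standard errors were derived from the F statistic. DESeq2 1.42.0 ran on the same genes. Symbols came from a name table that paired 26121 of 31952 genes. Ratios used raw counts within a library, with an exact permutation test.

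Named are all matched genes and, per wider list, the 2 with the smallest unadjusted p. COL4A1, col4a5, col4a6, 3 further ADAMTS genes and the marker genes lyz, nccrp1, apoeb, DCN, fap and twist1b were added after their values were seen. LUM, acana and both COL2A1 genes are named because they stand in 2 lists, and tnfa because it had 0 counts. The members and lists were chosen with earlier results of these data known. Alternatives were DESeq2, the likelihood ratio test, the legacy fit, RLE size factors, TMM without skeletal muscle markers, no filter, at least 10 counts in every library, a replicate block, unadjusted p and each library left out.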

Additional observations from a re-analysis of the deposited data

How the results depend on the processing

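No setting with an adjusted p called any of the 10 tested metalloproteinase and inhibitor genes, the lowest adjusted p being 0.184 in DESeq2. At an unadjusted p under 0.05, 1 was higher and 1 lower. With all 4 libraries, every test, scaling, filter and block kept the sign of all 10 log2 fold changes. Leaving out 1 library, with the lone one assumed to vary like the other group, turned the sign of 4 genes, with ranges of -1.30 to 0.98 for mmp2, -0.66 to 0.094 for TIMP2 (ENSDARG00000061226), -1.18 to 2.18 for TIMP2 (ENSDARG00000075261) and -0.86 to 1.00 for MMP15 (ENSDARG00000013072). The median over the 10 genes ranged from -0.67 to 0.54 and the log2 difference of the metalloproteinase to inhibitor ratio from -0.51 to 0.15, both positive without control 2. The cause was not tested.

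Over all genes, the 26 higher and 8 lower calls became 199 and 162 in DESeq2. The likelihood ratio test gave 137 higher and 93 lower, and the legacy fit 10 higher and 0 lower (835 and 1042 at an unadjusted p). Requiring 10 counts per library gave 88 higher and 64 lower. The main fit had 1037 higher and 1228 lower at an unadjusted p under 0.05. With no filter the calls were 19 higher and 2 lower. With 1 library left out they ranged from 6 to 88 higher and from 0 to 263 lower (0 without control 1, NRas+ 1 or NRas+ 2), the highest counts without control 2 and the lowest higher count without control 1.

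Adding the replicate block gave 7 higher and 0 lower calls (1136 and 1359 at an unadjusted p), and no edgeR call of a gene named here changed. Replicate differences correlated by 0.149 between groups over 2 pairs, which does not establish pairing. The settings for the wider lists were added after seeing the data. Without control 2 the medians of the ADAM genes, other metalloproteinases and 2 TIMP4 genes turned positive, at 0.11, 0.43 and 3.48. The last lies between 0.43 for the TIMP4 gene with more counts and 6.52 for ENSDARG00000102617. The latter had 0 counts in control 1 and 8 and 17 in NRas+. The median of the other metalloproteinases was -1.82 without NRas+ 2. It was also positive without NRas+ 1 (0.15) and with at least 10 counts per library (0.13, 4 genes). Counts were low for mmp13a, with 26 and 22 in the controls, and for mmp9, with 15 in control 1.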
